A study of Mus musculus with 7 samples.

Results

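The epidermal kallikreins are secreted serine proteases that keratinocytes make as they move towards the skin surface. The set described here held the kallikrein genes Klk5, Klk6, Klk7, Klk8, Klk9, Klk10, Klk11, Klk13 and Klk14 and the gene of their inhibitor, Spink5. The members were given as a list of gene names, drawn up with earlier results of these data known, and all 10 were measured, out of 19937 genes on the array. Each was represented by 1 probe set that names it alone. RNA of mouse tissue was hybridised to 7 Affymetrix Mouse Gene 1.0 ST arrays, from mice of a mixed C57BL/6 and 129 strain background. The groups were Iqgap1 knockout at day 0 (2 arrays), wild type at day 0 (1 array), Iqgap1 knockout at day 6 (2 arrays) and wild type at day 6 (2 arrays). The labels give topical 4OHT (4-hydroxytamoxifen, a ligand that switches on tamoxifen-dependent proteins) as the agent for all of them, and the days count its application. Iqgap1 encodes a scaffold protein for Ras-ERK signalling, and the design compares its loss with wild type at each day. The labels name no tamoxifen-dependent protein, no age or sex of the mice, no type of knockout allele and no tissue site. Nor do they say whether replicates came from separate animals. The 2 wild-type arrays of day 6 differed in the X-inactivation transcript Xist (10.30 and 3.73) and in Y-linked Eif2s3y (3.72 and 9.41). These 2 arrays thus did not come from 1 animal. For the knockout pairs this is open, so part of the sample-to-sample spread behind every p-value here could be technical.

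In the outermost skin, dead keratinocytes are held together by corneodesmosomes, and shedding them needs proteases that cut these junctions. KLK5, KLK7 and KLK14 are the kallikreins best known for this work. They are secreted as inactive precursors, are activated in a cascade, and between them cleave corneodesmosin, desmoglein and desmocollin. LEKTI, the multi-domain product of Spink5, holds them in check. Loss of LEKTI causes Netherton syndrome, in which unchecked kallikreins strip the barrier, and KLK5 cleaves the receptor PAR2 and so raises the cytokine TSLP.

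Some facts of the arrays bear on every result below. The values are log2 expression values (RMA), so a difference of 1 is a doubling. Keratinocyte markers were high on all arrays (Krt5 at 12.14 to 12.79, Krt14 at 11.71 to 12.89), while markers of fat, muscle and hair follicles were present too, so the tissue was a mixture. In such bulk samples, fewer cells of a type and less RNA per cell cannot be told apart. Iqgap1 was at 8.58 to 9.02 in the 4 knockout arrays and 9.94 to 10.59 in the 3 wild-type arrays. Where its probe set lies relative to the deleted part was not used here. The single wild-type day 0 array stood apart in hair follicle genes: their mean level over 9 measured markers of 10 listed was 11.60, against 5.0 to 5.17 in the 4 knockout arrays and 6.48 and 5.05 in wild type at day 6. The X-inactivation transcript Xist was at 11.15 on that array and at 10.30 on the first wild-type array of day 6, against 3.55 to 4.03 on the other 5. The fitted day changes in knockout use neither of these 2 arrays, apart from the pooled estimate of spread.

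The 9 kallikrein genes lie side by side on mouse chromosome 7. In the RefSeq order of GRCm38.p6 the run is Klk14, Klk13, Klk12, Klk11, Klk10, Klk9, Klk8, Klk7, Klk6, Klk5, Klk4 and Klk15, where Klk12, Klk4 and Klk15 are neighbours outside the set. The sources name no genome build for the array values, so the coordinates below belong to the RefSeq promoter sequences of GRCm38.p6 only. The last 100 bases before the annotated start are shown for 6 members that rose together and for Klk7 and Klk5, the 2 that did not pass the test, so that the neighbours can be compared. Capitals mark GTTAAAA, an AT-rich stretch that was picked after the sequences had been read. Klk6 has a further start upstream, which lacks GTTAAAA, and only the downstream one is shown. Klk11, which also rose, is not shown, and neither of its 2 starts had GTTAAAA. The choice of what is shown thus bears on any comparison of the neighbours.
Klk14 (chr7:43690318-43690417, + strand): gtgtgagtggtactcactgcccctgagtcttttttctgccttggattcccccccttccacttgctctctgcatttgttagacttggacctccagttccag
Klk13 (chr7:43712467-43712566, + strand): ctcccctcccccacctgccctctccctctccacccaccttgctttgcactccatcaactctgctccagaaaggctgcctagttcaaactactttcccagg
Klk10 (chr7:43780954-43781053, + strand): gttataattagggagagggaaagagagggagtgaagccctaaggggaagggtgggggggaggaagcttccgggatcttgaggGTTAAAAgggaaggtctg
Klk9 (chr7:43791791-43791890, + strand): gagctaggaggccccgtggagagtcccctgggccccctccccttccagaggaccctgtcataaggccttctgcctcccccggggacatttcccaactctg
Klk8 (chr7:43797477-43797576, + strand): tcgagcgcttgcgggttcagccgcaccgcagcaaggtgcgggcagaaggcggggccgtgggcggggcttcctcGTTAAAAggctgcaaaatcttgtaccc
Klk7 (chr7:43811194-43811293, + strand): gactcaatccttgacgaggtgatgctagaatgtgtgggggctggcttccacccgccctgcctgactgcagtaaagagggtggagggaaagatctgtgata
Klk6 (chr7:43825350-43825449, + strand): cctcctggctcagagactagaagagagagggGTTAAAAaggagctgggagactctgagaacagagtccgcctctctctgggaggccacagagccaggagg
Klk5 (chr7:43842169-43842268, + strand): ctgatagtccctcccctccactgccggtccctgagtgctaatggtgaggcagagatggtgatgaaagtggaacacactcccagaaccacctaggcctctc

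Of the 11 windows of 300 bases (250 before and 50 after a start) for the 9 kallikrein genes, 3 held GTTAAAA, and in each it lay on the gene's own strand, beginning 69 bases before the start of Klk6, 27 before that of Klk8 and 18 before that of Klk10. Over 32851 RefSeq promoter windows 3.41% held it on either strand, and 0.478% held it on the gene's strand within the 100 bases before the start. GTTAAAA was picked from these same kallikrein sequences, so neither rate can serve as a test of enrichment. The AP-1 motif TGANTCA (both strands searched) was in 0 of the 11 windows and in 7.81% of all windows. The TATA box letters TATAAA (both strands) were in 0 of the 11 and in 13.6% of all. No match overlapped one of another motif. These are matches of letters within a short window and say nothing about which factors bind.

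Between day 0 and day 6, 7 of the 10 genes rose and 0 fell: Klk6, Klk8, Klk9, Klk10, Klk11, Klk13 and Klk14. Klk13 rose most, by 4.64 ± 0.41 on the log2 scale (SE), and Klk9 and Klk14 rose 10.6-fold and 10.1-fold. The best-known enzyme pair of shedding, Klk5 and Klk7, and their inhibitor Spink5 did not pass the test. Over all genes, 11.5% were called in this comparison, 5.85% as risen and 5.62% as fallen (limma, adjusted p under 0.05, additive fit of genotype and day, n = 3 arrays of day 0 and 4 of day 6). The count behind the 11.5%, 2286 genes, was 727 or 1132 without knockout day 0 replicate 1 or 2. It was 1013 or 849 without knockout day 6 replicate 1 or 2. Without both arrays with Xist signal it was 4027, but no wild-type day 0 array is then left. The 4027 thus counts the day change in knockout. The median log2 change of the 10 genes was 1.69, against 0.06 over all genes tested. In the 7 genes that rose, all 4 day 6 arrays lay above all 3 day 0 arrays, an arrangement found in 11.9% of all genes (the reverse one in 9.66%, and in 0 of the 10). The mean of the 9 kallikrein genes was 8.91, 9.43 and 8.93 on the day 0 arrays and 11.08 to 11.37 on the day 6 arrays, while Spink5 was at 10.62 to 11.23 and 10.72 to 11.50.

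**Figure D1:**
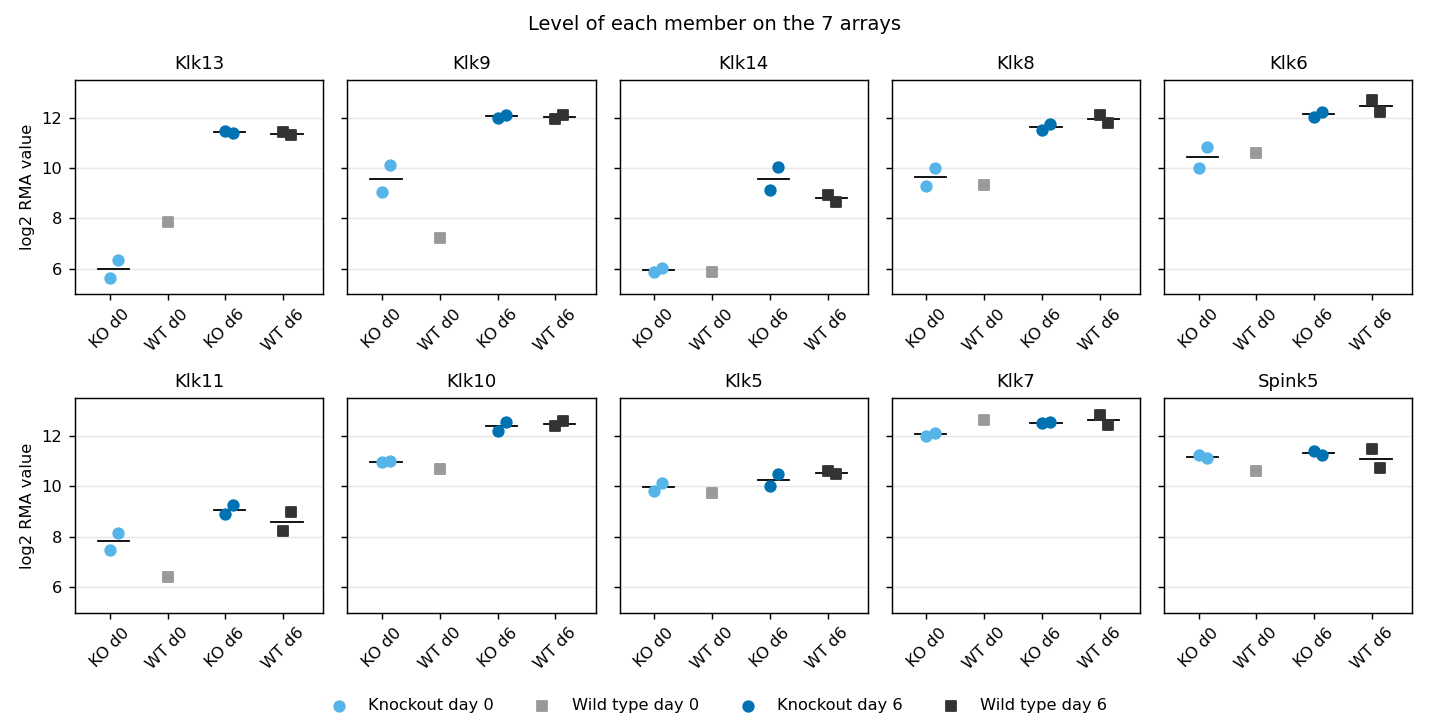
Level of each of the 10 genes on the 7 arrays (vertical axis, log2 RMA value; horizontal axis, the 4 groups; each point is 1 array and the line is the mean of 2). Day 6 points lie above all day 0 points for Klk13, Klk9, Klk14, Klk8, Klk6, Klk11 and Klk10, and overlap them for Klk5, Klk7 and Spink5.

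Of the shedding enzymes, Klk14 encodes a trypsin-like kallikrein able to activate the precursors of others. Klk14 (probe set 10552462) was at 5.89 and 6.05 in knockout at day 0 and at 5.87 in wild type. At day 6 it was at 9.11 and 10.05 in knockout and at 8.94 and 8.66 in wild type. The day 0 arrays were nearly level and every day 6 array was higher by more than 2 log2 units, a rise of 3.34 ± 0.27 (SE; limma adjusted p = 0.00146). Klk5 encodes a trypsin-like enzyme that acts early in the cascade. Klk5 (10552526) was at 9.82, 10.14 and 9.76 at day 0 (knockout, knockout, wild type). At day 6 it was at 10.01 and 10.50 in knockout and at 10.60 and 10.48 in wild type, so 1 knockout array of day 6 fell within the day 0 range. Its change was 0.48 with a 95% interval of 0.03 to 0.93 (limma adjusted p = 0.163). Klk7 encodes the chymotrypsin-like enzyme of the stratum corneum. Klk7 (10552508) was at 12.02, 12.13 and 12.62 at day 0 and at 12.50, 12.55, 12.83 and 12.45 at day 6, and its wild-type day 0 value was among the higher ones. Its change was 0.28 with a 95% interval of -0.09 to 0.65 (limma adjusted p = 0.315). The mean level of Klk7 was at the 99.9th percentile of all genes, near the top of the scale (highest value of any probe set 13.38), and what this does to its measured change was not tested.

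Spink5 (10455395) was at 11.23 and 11.13 in knockout at day 0 and at 10.62 in wild type. At day 6 it was at 11.40 and 11.24 in knockout and at 11.50 and 10.72 in wild type. The groups overlapped, and the difference between the 2 wild-type arrays of day 6 was larger than the fitted change of 0.28 ± 0.21 (SE; 95% interval -0.22 to 0.78, limma adjusted p = 0.463). The interval does not reach a rise of 1 log2 unit.

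Klk6 and Klk8 encode trypsin-like enzymes known from both brain and skin, where they are also called neurosin and neuropsin. Klk6 (10552516) was at 10.01, 10.84 and 10.60 at day 0, the last in wild type, and at 12.03, 12.23, 12.68 and 12.21 at day 6 (both knockout arrays, then both wild-type arrays). Klk8 (10552500) was at 9.28, 10.01 and 9.32 at day 0 and at 11.49, 11.73, 12.11 and 11.77 at day 6. Both were highest in replicate 1 of wild type at day 6 and both parted the days without overlap. The rises were 1.76 ± 0.23 for Klk6 and 2.23 ± 0.24 for Klk8 (SE), with limma adjusted p of 0.00667 and 0.00358.

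Klk13, Klk9, Klk10 and Klk11 are expressed in stratified epithelia, and their part in shedding is less settled. Klk13 (10552469) was at 5.64 and 6.37 in the knockout arrays and at 7.86 in the wild-type array of day 0. At day 6 its values were 11.45 and 11.37 in knockout and 11.41 and 11.29 in wild type. The day 0 arrays were spread over more than 2 log2 units, while the day 6 arrays lay close together. The rise had a limma adjusted p of 0.00193. Without the wild-type day 0 array the knockout arrays alone set the day change. The rise was then the one in knockout, 5.41 in place of 4.64. Klk9 (10552494) did likewise, from 9.05, 10.10 and 7.21 at day 0 to 12, 12.09, 11.94 and 12.10 at day 6, but its wild-type day 0 array was the lowest, not the highest. Its rise was 3.40 ± 0.50 (SE; limma adjusted p = 0.0100), and 2.47 in knockout, the value that remains without that array.

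Klk10 (10552488) had the smallest error of those that rose, with values of 10.96, 11.02 and 10.70 at day 0 and 12.22, 12.54, 12.39 and 12.59 at day 6. It rose by 1.55 ± 0.15 (SE; limma adjusted p = 0.00273). Klk11 (10552480) was at 7.48, 8.17 and 6.43 at day 0 and at 8.89, 9.26, 8.22 and 8.97 at day 6. The gap between the days was narrow, from 8.17 in a knockout array to 8.22 in a wild-type one. Its rise was 1.62 ± 0.30 (SE; limma adjusted p = 0.0209), and the call was lost without knockout day 0 replicate 1 (adjusted p = 0.0841) or without knockout day 6 replicate 2 (adjusted p = 0.0718). The other 6 calls held when any single array was left out, though leaving out the wild-type day 0 array gives the change in knockout.

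Along the chromosome, the first 7 genes of the run, Klk14 to Klk8, all rose, Klk12 among them. Klk12, the neighbour between Klk13 and Klk11, was at 6.98, 6.82 and 5.93 at day 0 and at 9.77, 9.97, 9.91 and 10.20 at day 6. It rose by 3.43 ± 0.25 (SE; limma adjusted p = 0.00107). Of the next 5 genes, Klk7, Klk6, Klk5, Klk4 and Klk15, Klk6 alone passed. Klk4, best known for tooth enamel, changed by 0.27 ± 0.15 and Klk15 by -0.25 ± 0.41 (SE). Klk4 was at 4.83 to 5.47 on the 7 arrays. Klk15 was highest in the wild-type day 0 array, at 6.52 against 4.47 to 5.25 on the others. All of these values but the 6.52 lay below the array medians (5.61 to 5.79), so both genes were weak. This is a description of 12 neighbours, and no test of position was made.

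**Figure D2:**
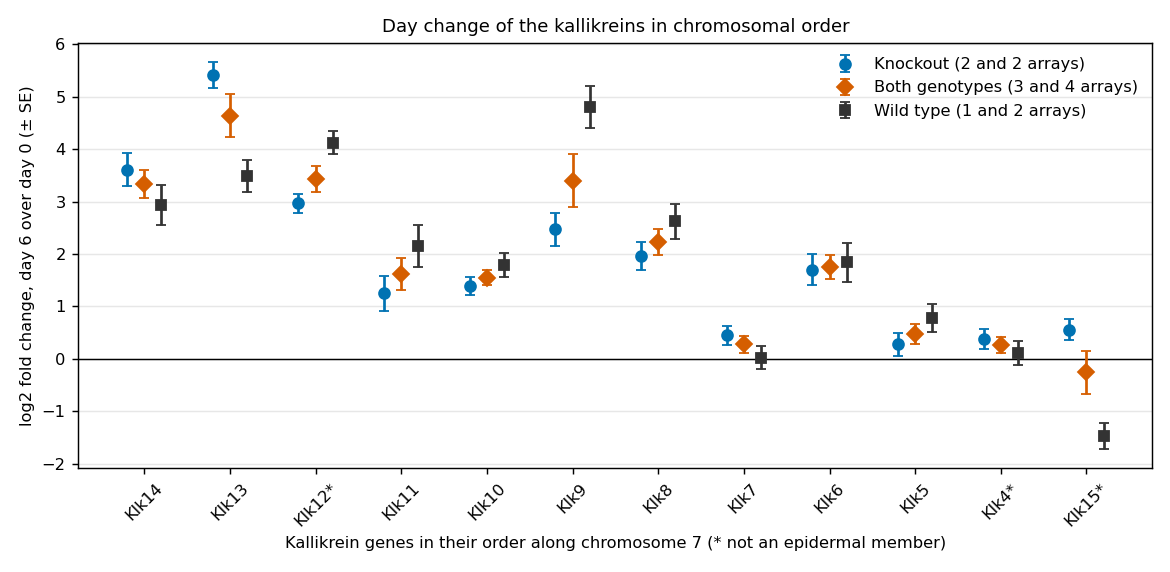
Change from day 0 to day 6 (log2, ± SE) of 12 kallikrein genes in their order along chromosome 7, in knockout, in wild type and over both genotypes. The genes from Klk14 to Klk8 lie above 1, and Klk7, Klk5 and Klk4 lie between 0 and 1.

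Within each genotype the same 7 genes passed. In knockout (2 arrays against 2, within a fit of 4 group means) 7 rose and 0 fell, where 16.3% of all genes were called, 7.24% as risen and 9.07% as fallen. The changes ran from 0.14 (Spink5) to 5.41 ± 0.25 (SE, Klk13), with a median of 1.55 against 0.10 over all genes. In wild type, against the single day 0 array, 7 rose and 0 fell, where 7.11% of all genes were called, 3.51% as risen and 3.61% as fallen. There the changes ran from 0.02 (Klk7) to 4.8 ± 0.40 (SE, Klk9), with a median of 2.00 against 0.0035 over all genes. The single wild-type day 0 array has no spread of its own and borrows it from the other groups. The weakest calls rested on single arrays. In knockout, Klk6 was lost without day 6 replicate 1 or 2 of knockout (adjusted p = 0.0538 and 0.0574), and Klk11 without either of these or day 0 replicate 1 (adjusted p = 0.116, 0.186 and 0.242), and also with all probe sets in the adjustment (adjusted p = 0.0793) or with array medians subtracted (adjusted p = 0.0953). In wild type, Klk6 was lost without any 1 of the 4 day 6 arrays (adjusted p = 0.0541 to 0.0702), with all probe sets (0.058), with a term for the arrays with Xist signal (0.0541) or with the replicate block (0.0575). Klk11 was lost in wild type without its day 6 replicate 2. For wild type, the term for Xist signal gives that same fit, for Klk6 as for Klk11, so it is not a separate check.

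At day 6 no member passed the test between knockout and wild type. Of the 10 genes 0 were called by limma, as of all genes (0%), and 1 of the 10 had an unadjusted p under 0.05, against 5.93% of all genes. That gene was Klk14, at 9.11 and 10.05 in knockout and 8.94 and 8.66 in wild type, a difference of 0.78 with a 95% interval of 0.05 to 1.51 (limma adjusted p = 0.801). Klk14 and Klk8 were the 2 members whose knockout and wild-type arrays did not overlap at day 6, an arrangement found in 31.6% of all genes. Klk8 ran the other way, with a difference of -0.33 (95% interval -0.97 to 0.31). Klk13 and Klk9, the genes that rose most, differed by 0.06 (95% interval -0.54 to 0.65) and 0.02 (95% interval -0.75 to 0.80). For every member the interval at day 6 left out a difference of 2 log2 units in either direction. Over both days 0 of 10 were called (0% of all genes, with 1 of the 10 and 18.7% of all genes at an unadjusted p under 0.05), the lowest limma adjusted p being 0.246 for Klk11. The 0 over all genes changed without replicate 2 of wild type at day 6: 836 genes were then called over both days. Some were also called at day 6, against the 1 wild-type array left there, and no member was called in either. Both wild-type arrays that remain had Xist signal (11.15 and 10.30) and low Y-linked Eif2s3y (3.72 and 3.72). The 4 knockout arrays had the opposite pattern (Xist 3.55 to 4.03, Eif2s3y 8.74 to 9.61). Genotype and Xist signal therefore cannot be told apart in that setting.

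At day 0 the groups did differ in 2 members, in opposite directions. Klk9 was higher in knockout by 2.36 ± 0.40 and Klk13 lower by 1.86 on the log2 scale (SE 0.31), with limma adjusted p of 0.0128 and 0.0119. Of all genes, 14.4% were called in this comparison, 8.53% as higher and 5.86% as lower in knockout, so 2 of 10 is close to the background. That background of 2869 genes was itself unsteady, at 1239 or 1282 without knockout day 0 replicate 1 or 2, 682 with a term for Xist signal, 4328 without either wild-type day 6 array and 4978 with only the day 0 arrays fitted. The comparison sets 2 arrays against 1, the one with Xist signal and hair follicle genes, so genotype, Xist signal and hair follicle content cannot be told apart here. With a term for the arrays with Xist signal both calls were lost (adjusted p = 0.161 for Klk9 and 0.143 for Klk13). Klk11 was higher by 1.40 ± 0.40 (SE) without passing (limma adjusted p = 0.0632). It passed in 5 alternatives: without either wild-type day 6 array (adjusted p = 0.04), with only the day 0 arrays fitted (0.0401), among genes with a mean of at least 6 (0.0489) and with the replicate block (1.10, 0.0317). With the term for Xist signal it was at 0.64 (0.548).

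**Figure D3:**
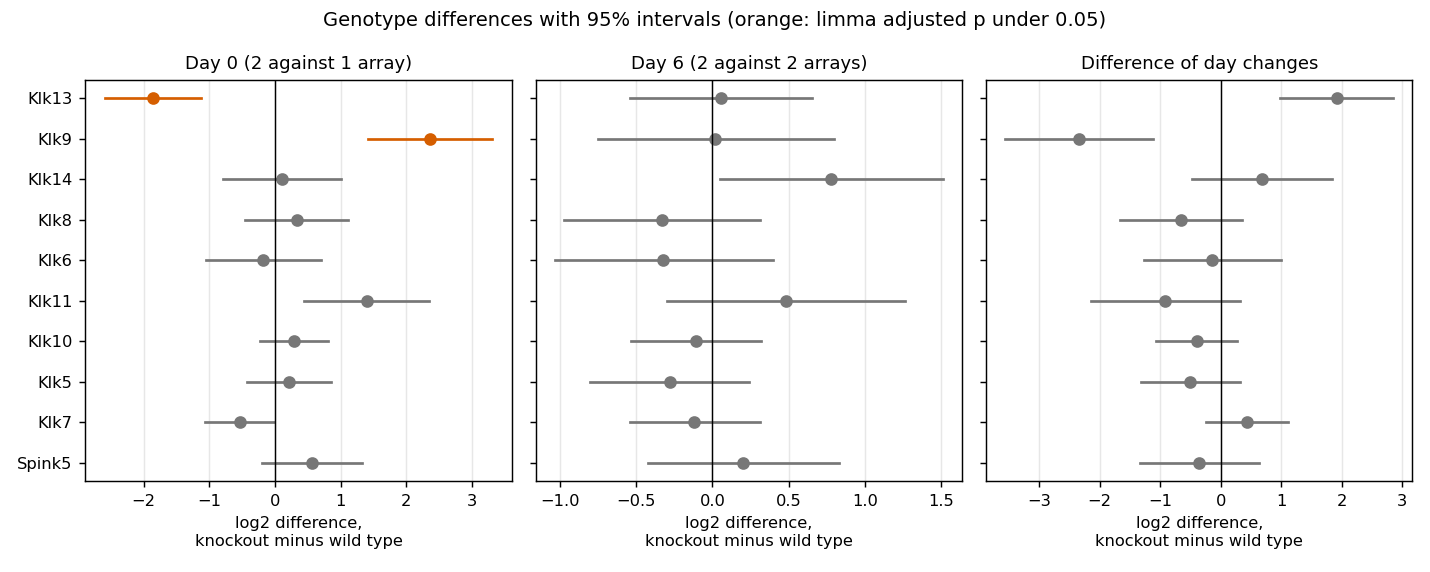
Knockout minus wild type (log2) at day 0, at day 6, and as the difference between their day changes, for the 10 genes; each point is the fitted value, each line its 95% interval, and the 3 panels have their own scales. Klk9 and Klk13 are called at day 0 and lie close to 0 at day 6.

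The same arrays set the difference between the day changes. The day change in knockout minus that in wild type was -2.34 ± 0.51 for Klk9 and 1.92 ± 0.39 for Klk13 (SE), with limma adjusted p of 0.0684 and 0.0565. Of the 10 genes 0 passed, 2 had an unadjusted p under 0.05 (17.3% of all genes), and 3.1% of all genes were called, 1.76% upward and 1.35% downward. Klk9 passed without knockout day 0 replicate 1 (-2.86, adjusted p = 0.0158) and Klk13 without knockout day 0 replicate 2 (2.28, adjusted p = 0.0304), and both passed with a trended variance (adjusted p = 0.0323 and 0.0407). At day 6 these 2 genes differed between genotypes by 0.06 or less in fitted value, so the spread lay in the day 0 values.

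The knockout arrays of day 0 also differed from each other. All 9 kallikrein genes were higher in replicate 2 than in replicate 1, by 0.06 (Klk10) to 1.05 (Klk9), with a median of 0.69, where 54.0% of all genes were higher and the median was 0.02. Spink5 went the other way, by -0.10. Several other groups were higher in replicate 2 too. The 7 stressed keratinocyte markers, among them keratins of wounded epidermis and the alarmins S100a8 and S100a9 (which neutrophils also make), were all higher there, with a mean level of 10.68 against 9.38. So were 8 of 9 neutrophil markers (mean 6.04 against 5.30, with Cxcr2 at 9.25 against 7.68 and Mmp8 at 6.34 against 4.89) and 9 of 10 other proteases of the upper epidermis (10.02 against 9.72). Krt6b was at 7.54 and 11.40 and Krt16 at 9.59 and 11.53 in replicates 1 and 2. At day 6 the mean level of these markers was 12.28 to 12.42 on all 4 arrays, and 6 of the 7 rose with day and 0 fell, with S100a8 up by 4.23 and Krt16 by 3.17 on the log2 scale and Krt17 not passing. By contrast 0 of 7 suprabasal markers passed with day over both genotypes (mean level 11.10 to 11.69 at day 0 and 11.36 to 11.82 at day 6). The median change of these 7 was 0.40 in wild type and 0.05 in knockout. The part of these marker groups in the kallikrein values was not tested.

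**Figure D4:**
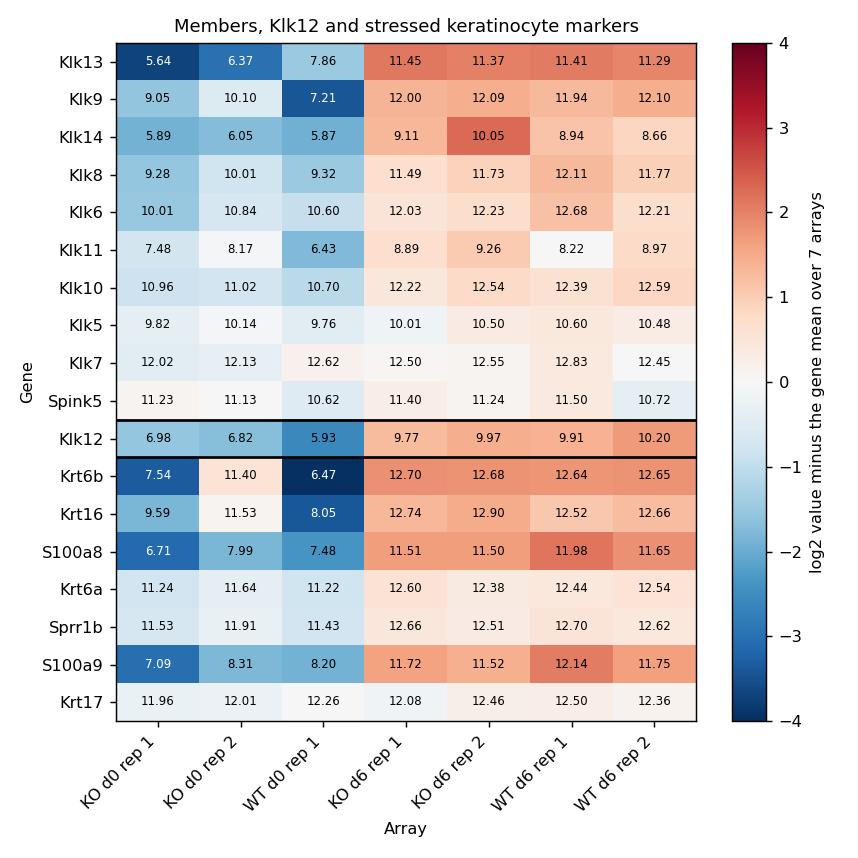
Log2 value (number in each cell) of the 10 genes, of Klk12 and of the 7 stressed keratinocyte markers on the 7 arrays; colour is the value minus the gene's mean over the 7 arrays. Replicate 2 of knockout at day 0 is warmer than replicate 1 in Klk9, Klk8, Krt6b and Krt16.

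Markers of several other cell types fell with day. Of 6 adipocyte markers 5 fell (mean level 10.16 to 11.01 at day 0 and 6.29 to 7.34 at day 6), and of 6 muscle markers 5 fell (11.43 to 12.41, then 9.07 to 9.82). Of 6 sebaceous gland markers 3 fell, from a mean of 9.53 to 10.37 at day 0 to 4.95 and 8.71 in knockout and 5.80 and 8.60 in wild type at day 6, the first replicate being far lower in both. Langerhans cell markers (3 of 5), fibroblast markers (2 of 6) and T cell markers (2 of 4 measured) fell in part, and 0 of these rose. Glandular epithelium had 2 of 5 markers risen, Krt18 and Aqp5. Over both genotypes, 0 of 9 neutrophil markers passed (5.15 to 6.04 at day 0, 5.70 to 7.21 at day 6). Nor did any of 9 hair follicle, 6 macrophage or 5 mast cell markers. The median change of the hair follicle markers was -6.11 in wild type and 0.21 in knockout. For neutrophil markers these medians were 2.2 and 0.36, for macrophage markers 0.25 and -0.47, and for mast cell markers 0.45 and -0.43. The wild-type medians rest on 1 array of day 0, which stood apart in hair follicle genes. The absence of calls thus does not show that these groups were unchanged. The 7 basal keratinocyte markers were mixed: Krt14 rose by 0.72 (limma adjusted p = 0.0276), Krt15 fell by 3.47 (limma adjusted p = 0.00191) and 5 did not pass, while in wild type alone 4 rose and 1 fell. The share of keratinocytes in each sample was not measured, and its part in the rise of the kallikreins was not tested.

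The genes with the most similar course were sought for the 4 members of largest range, as the root mean square difference over the 7 arrays after each gene was centred on its own mean. For Klk13 (range 5.82) these were Sprr2f (0.21), Sprr2b (0.39) and Lce3c (0.42), all genes of cornified envelope proteins. The Sprr2 genes have near-identical copies that can share signal. For Klk9 (range 4.89) they were Serpinb6c (0.16), Krt16 (0.28) and Sh2d5 (0.32). For Klk14 (range 4.19) they were Mmp11 (0.32), Fetub (0.34) and Samd12 (0.39), and for Klk11 (range 2.83) Nccrp1 (0.08), Tbc1d2 (0.18) and Rnf225 (0.18). No gene was shared between the 4 members.

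Around the kallikreins, 5 of 14 proteases that can activate such precursors rose with day and 0 fell, against 11.5% of all genes called (list median 0.16). Tmprss11d, an airway-type membrane protease, rose by 3.39 ± 0.32 (SE; limma adjusted p = 0.00259), from 3.94 to 4.19 on the day 0 arrays to 6.90 to 8.03. The other 4 were Tmprss11e (2.55), Plau (1.92), the urokinase gene, Tmprss4 (1.38) and Tmprss13 (0.79), and each was lost on leaving out at least 4 of the 7 arrays one at a time, with adjusted p up to 0.115, 0.129, 0.142 and 0.104. Tmprss11e was already at 9.99 in the wild-type day 0 array, against 7.29 and 7.22 in knockout. St14 and Prss8, the matriptase and prostasin genes that head the epidermal cascade, changed by -0.18 ± 0.16 and 0.09 ± 0.16 (SE) and are named here, like Plau and Tmprss4, after their values were seen.

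Among other proteases of the upper epidermis, 3 of 10 rose and 0 fell (median 0.34). Casp14, which helps break down filaggrin, rose by 1.99 ± 0.21 and Prss27 by 2.44 ± 0.30 (SE), with limma adjusted p of 0.00355 and 0.00543. Blmh, the bleomycin hydrolase gene, was at 1.30 ± 0.32 (SE; limma adjusted p = 0.0486) and was lost on leaving out 6 of the 7 arrays one at a time (up to 0.152). Of 14 other protease inhibitors measured, 3 rose and 0 fell, and 11, like Spink5, did not pass (median 0.04). Slpi, an inhibitor of trypsin-like and neutrophil proteases, rose by 4.62 ± 0.33 and Wfdc12 by 2.60 ± 0.21 (SE), with limma adjusted p of 0.000968 and 0.00146. Wfdc5 was at 2.04 ± 0.43 (SE; limma adjusted p = 0.0288) and was lost on leaving out 4 of the 7 arrays one at a time (up to 0.106).

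Of 11 measured corneodesmosome and cornified layer genes, 3 rose and 1 fell (median 0.50). Dsg1b, a desmoglein of the kind that kallikreins cut, rose by 1.55 ± 0.13 and Rptn (repetin) by 2.79 ± 0.21 (SE), with limma adjusted p of 0.00167 and 0.00118. Pkp1 was at 0.80 ± 0.18 (SE; limma adjusted p = 0.0375), and was lost on leaving out 6 of the 7 arrays one at a time (up to 0.134); it too is named after its value was seen. Flg2, a filaggrin relative, was 12.7-fold lower at day 6 (-3.67 ± 0.57, SE; limma adjusted p = 0.0114), and was at the threshold without knockout day 0 replicate 1 (0.05). Of 10 receptors and downstream signals measured, 1 rose and 1 fell (median 0.11). Tslp rose by 5.80 ± 0.44 (SE; limma adjusted p = 0.00118). It was at 4.73 to 5.63 on the day 0 arrays and at 9.39 to 11.42 on the day 6 arrays. F2rl2 was at -0.58 ± 0.13 (SE; limma adjusted p = 0.0395), and was lost on leaving out any single array (0.0611 to 0.134), while F2r, at 0.65 ± 0.20 (SE), did not pass. F2rl1, the PAR2 gene, was not analysed here.

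None of the measured glandular kallikreins passed over both genotypes. Klk1 was listed but not measured, as were 4 of the 13 listed Klk1b genes. Of 9 measured genes of the rodent Klk1b cluster, 0 rose and 0 fell in limma (1 fell in wild type alone, and 0 had an unadjusted p under 0.05 over both genotypes), with a median of -0.01. Klk1b11, Klk1b8 and Klk1b9 had the smallest p, at -0.37 ± 0.18, -0.67 ± 0.34 and -0.18 ± 0.18 (SE), and Klk1b8 was highest in the wild-type day 0 array (5.44, against 3.61 to 3.93). Their sequences are so similar that probes can be shared, which makes single values uncertain. For scale, Xist and Y-linked genes on arrays without their signal were at 3.50 to 4.25.

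**Figure D5:**
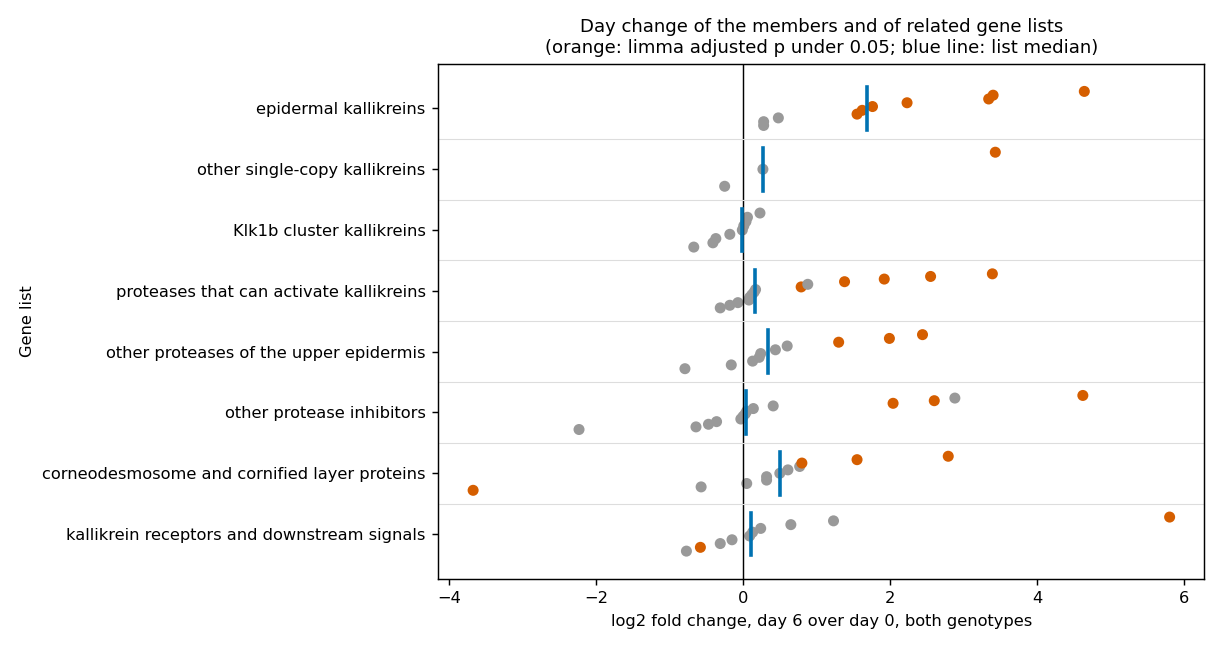
Change from day 0 to day 6 over both genotypes (log2, horizontal axis) of every measured gene of the epidermal kallikrein set and of 7 related lists (vertical axis); each point is 1 gene, orange where the limma adjusted p was under 0.05, and the blue line is the list median. The kallikrein set has a median of 1.69, and the other lists have medians of -0.01 to 0.50.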

How the data were processed

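RNA was extracted, amplified and biotin-labelled per the labels' protocols, and the submitters' processing notes name RMA and R 2.11.1 for the authors' deposited log2 values. The log2 scale was read from the range of the values, 2.37 to 13.38. RMA equalises the distributions of the arrays and compresses low values, so folds of weak genes are understated. Its settings, array batches and the genome build are not given in the sources used here. Of 34760 probe sets, 21640 named 1 gene, 1321 several and 11799 none. Each gene took the probe set of highest mean (19937 genes, 19855 matched to RefSeq by gene identifier).

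Tests used limma (3.58.1; R 4.3.3; lmFit and eBayes, two-sided). A gene was called at a Benjamini-Hochberg adjusted p under 0.05 over all 19937 genes. An additive fit with 4 residual degrees of freedom gave day over both genotypes and genotype over both days, and 4 group means with 3 gave the 5 further comparisons. The wild-type comparisons share the single day 0 array. Intervals are 95% from the moderated errors. The number of arrays limits the precision. The procedure was run on simulated data with known shifts, and the check was that fitted changes followed the shifts. The simulated noise was independent between arrays and held no difference by Xist signal, so it does not vouch for the calls.

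Members, gene lists and marker lists were chosen with earlier results of these data known. Named genes were the members, Iqgap1, up to 3 of each pathway list with the smallest p for day over both genotypes, and the 3 genes of most similar course for the 4 members of largest range (predicted genes passed over). Marker genes are named as examples chosen after their values were seen. Alternatives changed the variance model, the genes tested, a filter at a mean of 6, the scaling, the probe set rule, the arrays with Xist signal (above 7), the replicate block, the groups in the fit and single arrays.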

Additional observations from a re-analysis of the deposited data

How the results depend on the processing

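The counts of called members kept within 1.5 times of their values in every alternative run, with these exceptions. For the difference between the day changes, 0 members became 2 with a trended variance and 1 with quantile normalization over the genes tested, and 0 to 1 when single arrays were left out. For genotype at day 0, 2 became 0 with a term for the arrays with Xist signal. Of 170 values of the members for day over both genotypes, 168 kept direction and side of the threshold and 2 no longer passed (both Klk11). In wild type the alternatives that drop its only day 0 array gave no value. Without the arrays with Xist signal, the fit of day over both genotypes gives the day change in knockout. The counts over all genes for day over both genotypes ranged from 727 (without knockout day 0 replicate 1) to 4027 (in that setting), against 2286. They ranged from 1381 (without knockout day 6 replicate 1) to 4027 for day in knockout, against 3251, from 1040 to 2209 (without wild-type day 6 replicate 1) for day in wild type, against 1418, from 682 to 4978 for genotype at day 0, against 2869, and from 143 (without knockout day 6 replicate 1) to 1038 (without wild-type day 6 replicate 1) for the difference between the day changes, against 619. For genotype over both days and at day 6 they were 0 in the alternatives run, with 2 exceptions. With all probe sets 1 was called at day 6. Without wild-type day 6 replicate 2, 836 were called over both days and some at day 6. In that setting genotype and Xist signal cannot be told apart.

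The replicate block left 7 members called for day over both genotypes, 7 in knockout and 6 in wild type, and 3 for genotype at day 0 (Klk11 with Klk9 and Klk13). It moved the calls over all genes from 2286 to 1745. Same-numbered arrays deviated together only weakly (correlations across genes of 0.09, 0.04 and 0.23), so the numbers were not taken as pairs.

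Directions turned only for values that had not passed. In some settings the arrays left set a narrower comparison, as given below, and the cause of the other turns was not tested. With quantile normalization, Klk7 for day in wild type was -0.01. With a term for the arrays with Xist signal, genotype over both days was 0.03 for Klk7 and -0.16 for Klk10, genotype at day 6 was 0.07 for Klk7 and -0.06 for Klk9, and Klk6 at day 0 was 0.30. Without those arrays, knockout alone sets the day change, and genotype over both days is the difference at day 6. Genotype over both days was then 0.07 for Klk7, -0.06 for Klk9, -0.21 for Klk10 and 0.12 for Klk13. The values at day 6 that turned, 0.07 for Klk7 and -0.06 for Klk9, are the same estimates. Day was 0.56 for Klk15, 0.09 for Klk1b9 and 0.06 for St14, which are the changes in knockout. With the replicate block, Klk14 for genotype at day 0 was -0.03.

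When single arrays were left out, values that turned ranged as follows. Day over both genotypes was -0.51 to 0.56 for Klk15, -0.31 to 0.09 for Klk1b9, -0.29 to 0.06 for St14 and -0.06 to 0.26 for Prss8. The upper ends are the changes in knockout, obtained without the wild-type day 0 array. Day in wild type was -0.16 to 0.21 for Klk7. Genotype over both days was -0.28 to 0.09 for Klk5, -0.33 to 0.08 for Klk8, -0.11 to 0.17 for Klk10 and -0.93 to 0.06 for Klk13. Genotype at day 6 was -0.30 to 0.07 for Klk7, -0.06 to 0.11 for Klk9, -0.27 to 0.05 for Klk10, 0.00 to 0.12 for Klk13 and -0.19 to 0.59 for Spink5. Genotype at day 0 was -0.59 to 0.23 for Klk6 and -0.04 to 0.69 for Klk8. The difference between the day changes was -0.55 to 0.27 for Klk6 and -0.75 to 0.03 for Spink5.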
